A study of Mus musculus with 6 samples.

Results

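*Zdbf2*, *Gpr1*, *Trappc9*, *Impact*, *Inpp5f* and *Cdh15* are 6 mouse genes that lie at maternally methylated control regions of imprinting, and *Trappc9* holds the region of *Peg13* within it. They were chosen by name, with earlier results of these data known. All peaks of ZFP57 and of KAP1 that touched a gene body, or the 20 kb on either side of it, were taken from the 4 peak lists of the study. This gave 49 of the 123233 peaks deposited, in windows that add up to 0.91 Mb of the mm9 assembly. The 6 genes are part of the 22367 protein-coding genes of the annotation (GENCODE M1).

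The peaks come from ChIP-seq in male hybrid ESC lines. Both derive from F1 hybrids of the strains JF1 and B6. In JB1 the maternal genome is that of JF1 and the paternal genome that of B6, and in BJ1 the cross is reversed. JF1 is a *Mus musculus molossinus* strain and B6 is C57Bl/6. Each line was grown without feeders in the presence of serum and LIF, and its crosslinked chromatin was precipitated with an antibody against ZFP57 and with an antibody against KAP1. Each line and antibody has 1 library, and each line is a single ESC line, so that a difference between JB1 and BJ1 cannot be told apart from a difference between libraries. The input libraries of both lines were not analysed here. The lists hold no expression values, and the ESC label was not checked against markers.

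Imprinted genes are expressed from the allele of a single parent, and their expression follows the DNA methylation that the control region carries on the allele inherited from the mother or the father. ZFP57 is a zinc-finger protein of the KRAB family that binds the methylated form of TGCCGC, and KAP1 is the co-repressor that it brings to the DNA, together with histone and DNA methyltransferases. In the early embryo and in ESCs both proteins are needed to keep the methylation of the control regions. The loci described here are less often studied than *Snrpn* or *Mest*. *Zdbf2* encodes a zinc-finger protein and is expressed from the paternal allele, under the control of a long transcript that starts upstream of it, within the neighbouring gene *Gpr1*, which encodes a receptor of the chemokine-like protein chemerin. *Peg13* is a paternally expressed non-coding RNA made within an intron of *Trappc9*, whose product is a subunit of a vesicle trafficking complex. *Impact*, a regulator of the response to amino acid starvation, has its control region in the first intron. *Inpp5f* encodes a phosphoinositide phosphatase and has an internal promoter whose transcript is imprinted. *Cdh15* encodes the muscle cadherin, and its methylated region lies within the gene.

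The sequences under 4 of the ZFP57 peaks are shown first, because the peaks of these loci differ in how many copies of the motif they hold and in how close the copies lie. Each line gives the stretch of up to 300 bp of the peak with the most motifs in close pairs or, where there is no pair, as at *Cdh15*, with the most motifs. No stretch is printed for *Impact*. The stretches are read from the plus strand of mm9, that is, of B6. Bases in which JF1 differs were not looked up, so that all counts of motifs are those of the B6 genome, and a copy counted here may be absent from the JF1 allele. Capitals mark the motif, either as TGCCGC or, where it lies on the minus strand, as GCGGCA. None of the stretches overlaps an annotated untranslated region, and that of *Cdh15* spans parts of coding exons with the intron between them.
Gpr1 intron, chr1:63246765-63246842: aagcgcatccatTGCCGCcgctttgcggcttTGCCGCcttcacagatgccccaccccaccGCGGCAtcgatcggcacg
Trappc9 intron, chr15:72640211-72640499: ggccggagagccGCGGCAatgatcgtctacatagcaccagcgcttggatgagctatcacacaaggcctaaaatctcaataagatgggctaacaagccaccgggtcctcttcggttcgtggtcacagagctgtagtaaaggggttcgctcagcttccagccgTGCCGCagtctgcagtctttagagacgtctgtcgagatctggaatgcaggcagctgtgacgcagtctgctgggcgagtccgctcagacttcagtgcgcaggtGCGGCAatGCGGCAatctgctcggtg
Inpp5f internal peak, chr7:135831473-135831531: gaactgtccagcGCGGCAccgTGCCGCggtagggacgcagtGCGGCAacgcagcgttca
Cdh15 exons and intron, chr8:125389038-125389258: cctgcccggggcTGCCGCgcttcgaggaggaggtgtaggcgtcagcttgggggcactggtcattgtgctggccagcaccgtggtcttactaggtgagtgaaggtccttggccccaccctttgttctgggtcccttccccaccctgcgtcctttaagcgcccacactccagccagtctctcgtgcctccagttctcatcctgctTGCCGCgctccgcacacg

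The shortest of these stretches, 59 bp at *Inpp5f*, holds 3 copies on both strands. The 78 bp stretch at *Gpr1* also holds 3, whereas the 2 copies at *Cdh15* lie at the ends of a stretch of 221 bp. The stretch at *Trappc9* holds 4 copies, of which the last 2 start 8 bp apart.

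ZFP57 had a peak at 5 of the 6 genes in JB1 and at 5 of the 6 in BJ1. Over all protein-coding genes, 17.3% had a JB1 ZFP57 peak in the same kind of window and 4.18% had a BJ1 ZFP57 peak, and 2.79% had a peak of both lines, against 5 of the 6 genes here. *Zdbf2* was the gene without a ZFP57 peak, in either line. *Inpp5f* had ZFP57 peaks of both lines, but at different places. Its peak at the internal start was found in JB1 only, and within the body of the gene it had no BJ1 ZFP57 peak. *Gpr1*, *Trappc9*, *Impact* and *Cdh15* each had a region with a ZFP57 and a KAP1 peak of both lines. Such regions of all 4 lists lay at 4 of the 6 genes and at 2.15% of protein-coding genes, and there were 541 of them in the genome. KAP1 had peaks at all 6 genes in both lines, where the background was 47.1% of genes in JB1 and 78.8% in BJ1. The background windows follow the length of each gene, and that of *Trappc9*, at 511.6 kb, was the longest of the 6.

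**Figure D1:**
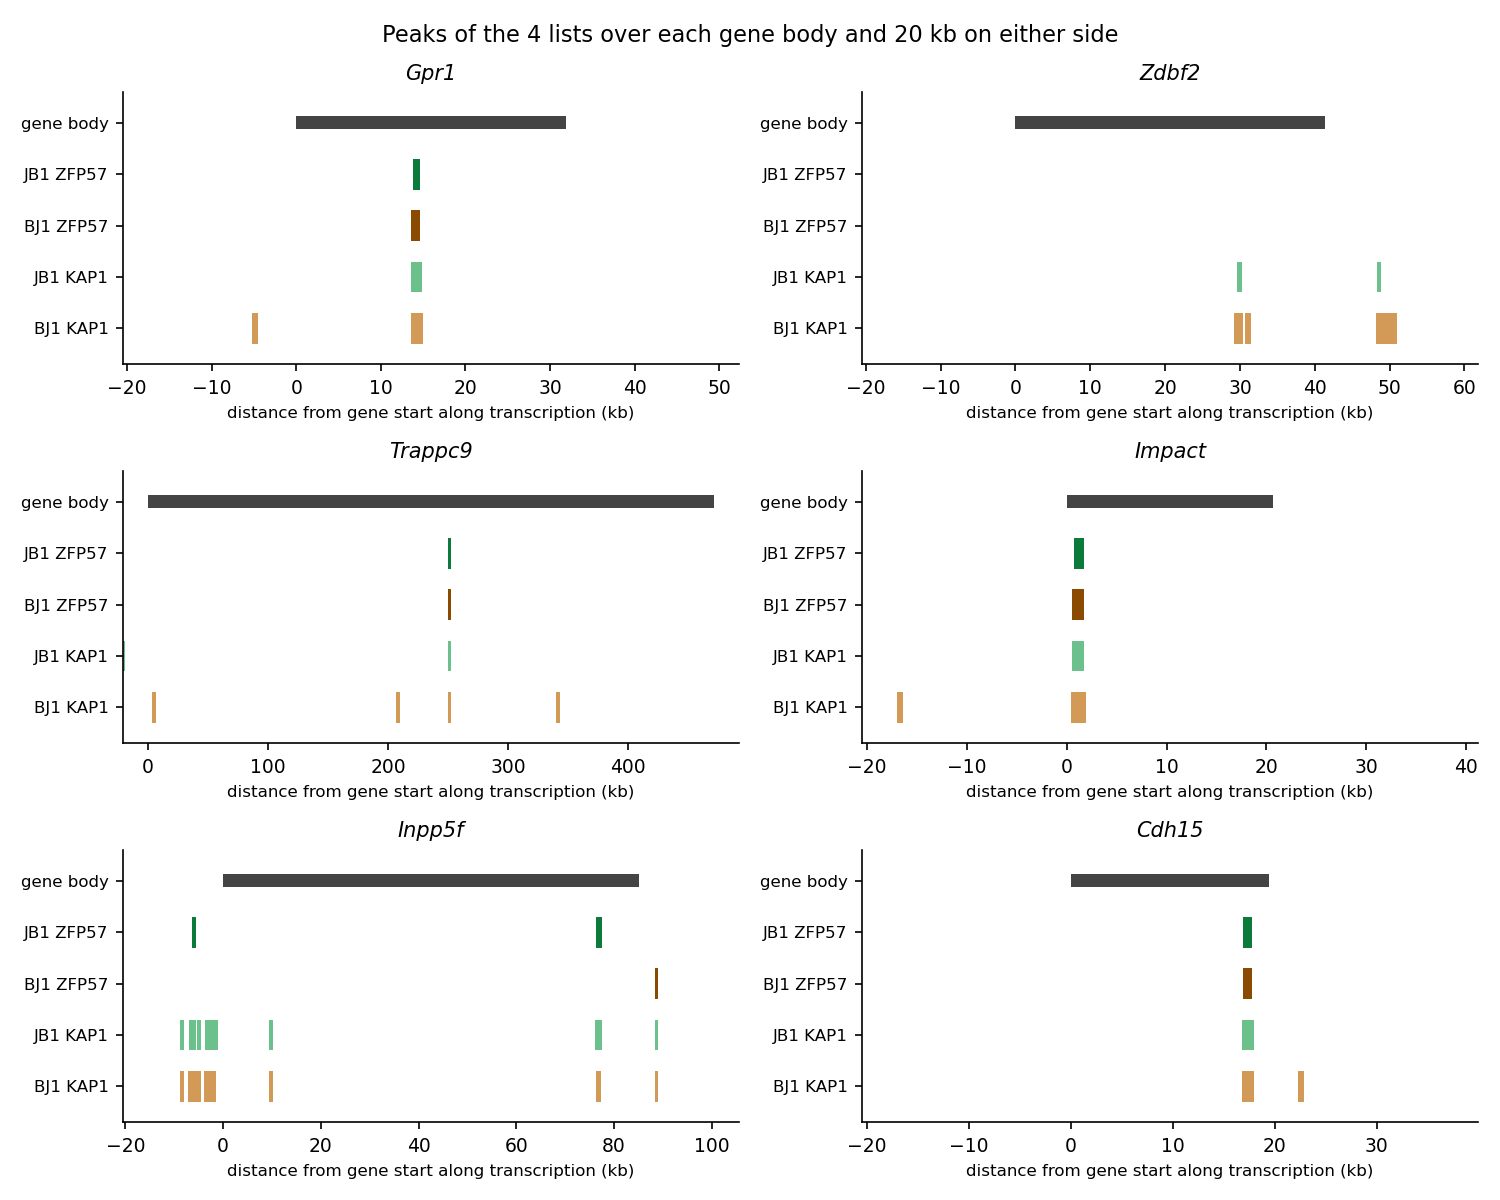
Map of the peaks of the 4 lists at each gene, with the distance from the gene start along transcription (kb) on the horizontal axis and a row for the gene body and for each list; very narrow peaks are drawn at a minimum width. At *Gpr1*, *Trappc9*, *Impact* and *Cdh15* the bars of the 4 lists stand above one another, *Zdbf2* has KAP1 bars only, and at *Inpp5f* the JB1 and BJ1 ZFP57 bars are at different places.

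The 6 genes had similar numbers of ZFP57 peaks in JB1 and BJ1 within 20 kb, although the lists differ in length. The lists hold 10667 ZFP57 peaks in JB1 and 1318 in BJ1, a ratio of 8.09, and the 6 genes had 6 and 5 peaks, a ratio of 1.2. Per Mb of the 20 kb windows this is 6.59 peaks in JB1, where the whole list has 4.02 per Mb of the assembly, and 5.49 in BJ1, where the whole list has 0.496. With a flank of 50 kb the genes had 9 peaks in JB1 and 5 in BJ1. Of the 6 JB1 peaks within 20 kb 4 overlapped a BJ1 peak, and of the 5 BJ1 peaks 4 overlapped a JB1 peak. In the whole lists 5.4% of the JB1 and 43.6% of the BJ1 ZFP57 peaks overlapped a peak of the other line. Each of these 11 peaks also overlapped a KAP1 peak of its own line, as did 60.5% of all JB1 and 55.7% of all BJ1 ZFP57 peaks.

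*Gpr1* (ENSMUSG00000046856.7, chr1:63229265-63261117, minus strand) carried its ZFP57 peak in an intron, at chr1:63246451-63247350 in JB1 and chr1:63246451-63247500 in BJ1. The peaks were 900 and 1050 bp wide, and they lay about 14.2 kb after the start of the gene. KAP1 covered both of them in both lines, with a peak of 1200 bp in JB1 (chr1:63246301-63247500) and of 1350 bp in BJ1 (chr1:63246151-63247500). The annotated start of *Gm11607*, at position 63246887 on the plus strand, lay under the peaks of all 4 lists. BJ1 had a further KAP1 peak of 750 bp, 4.53 kb upstream of *Gpr1*, without a ZFP57 peak and without a motif.

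*Zdbf2* (ENSMUSG00000027520.8, chr1:63319839-63361150, plus strand) had no ZFP57 peak in the gene or within 20 kb of it. The nearest ZFP57 peak after the gene was a JB1 peak of 300 bp, 45.5 kb downstream and outside the window. The ZFP57 peak in *Gpr1* bears on *Zdbf2* in another way. RefSeq lists 2 promoters for *Zdbf2*, which were placed in mm9 by an exact match of their 300 bases. The promoter near the annotated start had no TGCCGC and overlapped no peak. The upstream promoter matched chr1:63246682-63246981, with its start at 63246932, and lay wholly within the *Gpr1* peaks of all 4 lists. It held all 3 TGCCGC copies of the *Gpr1* peak, in the stretch printed above, whereas 11.6% of the 32851 RefSeq promoters of the same length hold at least 1 copy. None of the promoters placed for *Gpr1*, *Inpp5f* and *Cdh15* overlapped a peak or held a TGCCGC. The window rule counts the *Gpr1* peak under *Gpr1* only, because it uses the gene body of GENCODE M1, which starts at 63319839 for *Zdbf2*. That *Zdbf2* has no ZFP57 peak thus holds for this annotation of the gene.

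The KAP1 peaks of *Zdbf2* differed in number between the lines, with 2 in JB1 and 5 in BJ1. A JB1 peak of 600 bp (chr1:63349501-63350100) lay over coding sequence 30 kb after the gene start, inside a BJ1 peak of 1200 bp (chr1:63349051-63350250). The BJ1 peak held 2 copies of TGCCGC that start 9 bp apart, and the JB1 peak held none. A second BJ1 peak of 750 bp followed it, over coding sequence as well, with no JB1 counterpart. After the end of the gene BJ1 had 3 peaks that touch one another, over 2850 bp (chr1:63367951-63370800), of which the first overlapped the second JB1 peak, 600 bp wide. No ZFP57 peak of either line overlapped a KAP1 peak of *Zdbf2*.

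*Trappc9* (ENSMUSG00000047921.8, chr15:72420051-72891634, minus strand) carried its ZFP57 peak at chr15:72640051-72640950 in JB1 and chr15:72639901-72640950 in BJ1, 900 and 1050 bp wide. The peak lay in an intron, about 251 kb from the gene start and 103 kb from the nearest annotated start, that of *Gm3150*. *Peg13* has no entry in GENCODE M1, and the peak is therefore placed by *Trappc9* alone. The JB1 KAP1 peak had the same edges as the BJ1 ZFP57 peak, and the BJ1 KAP1 peak was 1500 bp wide (chr15:72639601-72641100). The other KAP1 peaks of the locus were found in the body in BJ1 only, at 5.58, 208.4 and 341.7 kb from the gene start, with widths of 300, 600 and 1050 bp. None of these 3 held a motif, and each had 6.67 CpG per kb, against 56.7 in the JB1 ZFP57 peak.

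At the edge of the *Trappc9* window the count depends on a few bases. A JB1 KAP1 peak of 1350 bp (chr15:72911551-72912900) touched the window, and the BJ1 peak that it overlaps, of 1200 bp, began 20.1 kb before the gene, just outside. Further upstream, towards *Chrac1*, JB1 had ZFP57 peaks of 600 and 300 bp at 24.4 and 26.4 kb, both under KAP1 peaks of both lines. BJ1 had no ZFP57 peak there.

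*Cdh15* (ENSMUSG00000031962.4, chr8:125371866-125391297, plus strand) had a ZFP57 peak with the same edges in both lines, chr8:125388751-125389650, 900 bp wide. The KAP1 peaks also had the same edges in both lines, chr8:125388601-125389800, 1200 bp wide, so that KAP1 extended 150 bp past ZFP57 on each side. The peak lay 16.9 kb after the gene start, near the end of the gene, over coding sequence, and both TGCCGC copies lay in coding exons. Among the 4 ZFP57 sites found in both lines it was the only one whose edges did not differ between them. BJ1 had a further KAP1 peak of 600 bp after the gene, with no ZFP57 peak and with 2 copies of GGCCGC.

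*Impact* (ENSMUSG00000024423.5, chr18:13130761-13151457, plus strand) had the ZFP57 site nearest to the start of the gene itself among the 6. The JB1 peak was at chr18:13131451-13132500, from 690 bp after the start, and the BJ1 peak at chr18:13131301-13132500, from 540 bp after it. They were 1050 and 1200 bp wide and lay in an intron. The JB1 KAP1 peak had the edges of the BJ1 ZFP57 peak, as at *Trappc9*, and the BJ1 KAP1 peak was 1500 bp wide. BJ1 had a further KAP1 peak of 600 bp, 16.4 kb upstream of the gene, which held 1 copy of GGCCGC and overlapped no ZFP57 peak.

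*Inpp5f* (ENSMUSG00000042105.11, chr7:135754842-135839939, plus strand) was the gene with the most peaks, and the ZFP57 peaks of the lines did not overlap anywhere in its window. The JB1 ZFP57 peak at chr7:135831151-135832350 was 1200 bp wide, the widest JB1 ZFP57 peak of the 6 genes. It lay 76.3 kb after the gene start and covered an internal start (Inpp5f-006, at 135832003). BJ1 had no ZFP57 peak there, although its KAP1 peak was present, 1050 bp wide (chr7:135831151-135832200). The JB1 KAP1 peak was 1350 bp wide (chr7:135831001-135832350) and covered a further internal start (Inpp5f-005, at 135831060). The absence of a BJ1 ZFP57 peak means that none passed the threshold of the caller, and it does not show that ZFP57 is absent. No reads, input included, were compared at this site.

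The other ZFP57 peaks near *Inpp5f* were narrower and were each found in a single line. A JB1 peak of 300 bp (chr7:135748801-135749100) lay upstream of the gene, within KAP1 peaks of both lines that were 1350 bp wide in JB1 and 1950 bp in BJ1. It held 1 TGCCGC. A BJ1 peak of 450 bp (chr7:135843301-135843750) lay past the end of the gene, in an intron of *Mcmbp*, and the KAP1 peaks of both lines had exactly its edges. It held no motif. *Inpp5f* had 8 KAP1 peaks in each line, all of which overlapped a peak of the other line. In each line 5 of them lay upstream of the gene. Their nearest edges were 8.14 to 1.09 kb before its start in JB1 and 8.14 to 1.39 kb in BJ1. In JB1 the widest, 2100 bp, was the nearest to the start. In BJ1 the widest, 1950 bp, was that over the upstream JB1 ZFP57 peak, and the nearest to the start was 1800 bp wide. In both lines the 2 peaks nearest to the start touched each other, over 2550 bp in JB1 and 2400 bp in BJ1.

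**Figure D2:**
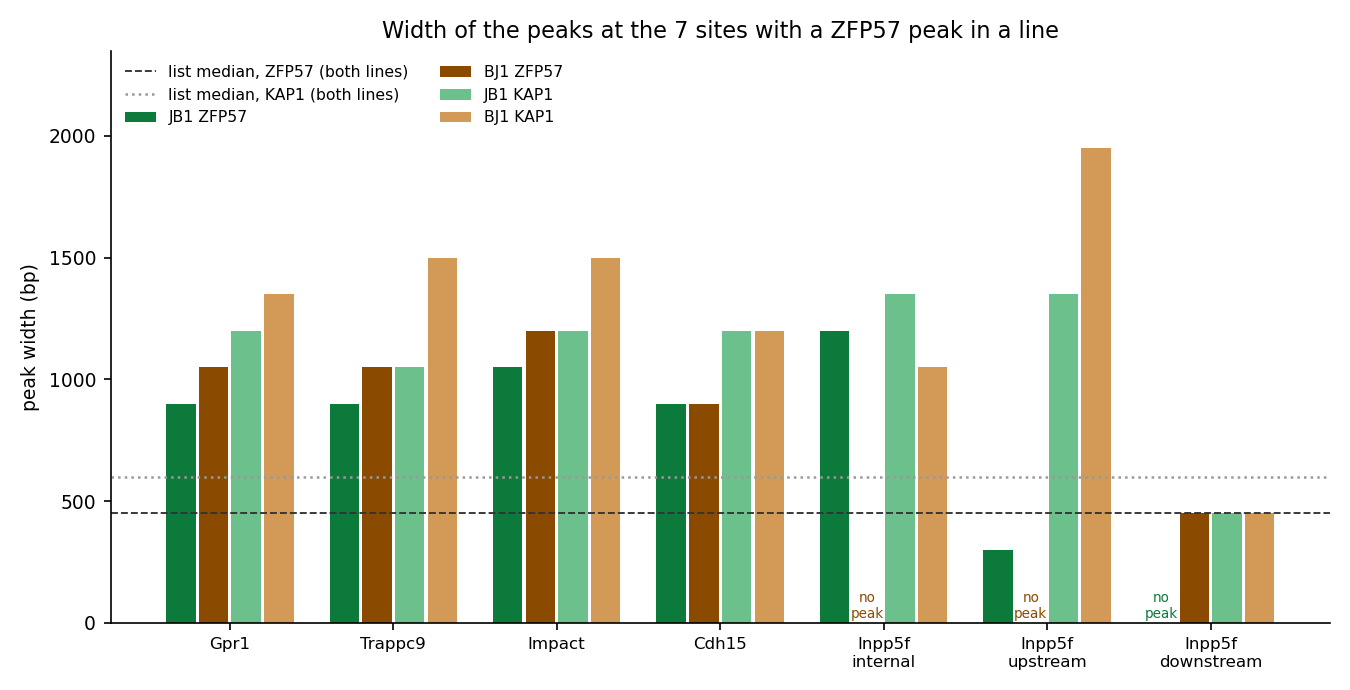
Width (bp) of the ZFP57 and KAP1 peaks of JB1 and BJ1 at each of the 7 sites with a ZFP57 peak in a line, with dashed and dotted lines at the median of the ZFP57 lists (450 bp) and of the KAP1 lists (600 bp). Bars at the first 4 sites and at the internal site of *Inpp5f* are all above the median of their list, and the flanking sites of *Inpp5f* have ZFP57 bars of 300 and 450 bp.

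The ZFP57 peaks in the bodies of the 5 genes were wider than most of their list, which is a description of these libraries and was not tested. The median width was 450 bp in both ZFP57 lists, and these peaks were 900 to 1200 bp wide, that is, 2 to 2.67 times the median. A JB1 peak of 900 bp, as at *Gpr1*, was at least as wide as 95.03% of the JB1 list, and the BJ1 peak of *Impact* at least as wide as 98.25% of the BJ1 list. At 3 of the 4 regions of all 4 lists (*Gpr1*, *Trappc9* and *Impact*) the BJ1 ZFP57 peak was wider than the JB1 peak, by a single window of 150 bp. Of the 541 regions of the genome 10.5% had the wider ZFP57 peak in BJ1 and 66.9% had the narrower. Each edge is known to the 150 bp window only. The reads of both parental genomes were aligned to mm9, that is, to B6, and the lists are not split by allele. Whether this bears on the widths was not tested. KAP1 covered the whole ZFP57 peak of its line at each of these sites, and it was wider in BJ1 than in JB1 at *Gpr1*, *Trappc9* and *Impact* and narrower at the internal site of *Inpp5f*.

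All 6 JB1 ZFP57 peaks at these genes held at least 1 copy of TGCCGC. Of the 5 BJ1 peaks 4 held at least 1, and the exception was the peak in *Mcmbp*. The motif was searched on both strands, and TGCCGC was in 47.7% of all JB1 and 43.7% of all BJ1 ZFP57 peaks, in 88.2% of the regions of all 4 lists, and in 5.19% of 900 bp tiles of the genome. GGCCGC, a variant of the motif, was counted beside it. *Impact* and *Trappc9* each held 5 copies of TGCCGC and 2 of GGCCGC. The internal peak of *Inpp5f* held 6 of TGCCGC, that of *Gpr1* held 3 and that of *Cdh15* held 2, without a GGCCGC in any of these.

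The sites also differed in how the copies are paired. A pair is here a pair of successive copies whose starts are less than 38 bp apart. *Gpr1* had 2 pairs, at 19 and 29 bp, and *Trappc9* had 1, at 8 bp. The internal site of *Inpp5f* had 2 pairs within the 59 bp printed above, with starts as close as 9 bp. At *Impact* the pairs consisted of a TGCCGC and a GGCCGC, so that no pair was left where TGCCGC was counted alone. *Cdh15* had no pair, as its 2 copies start 191 bp apart. In all, 4 of the 6 JB1 peaks and 3 of the 5 BJ1 peaks held a pair, against 6.07% and 14.9% of the lists, 35.3% of the regions of all 4 lists and 0.466% of 900 bp tiles. The ZFP57 peaks here had a median width of 900 bp in JB1 and 1050 bp in BJ1, against 450 bp in each list. A wider peak has more room for copies and pairs, and list peaks of equal width were not compared.

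**Figure D3:**
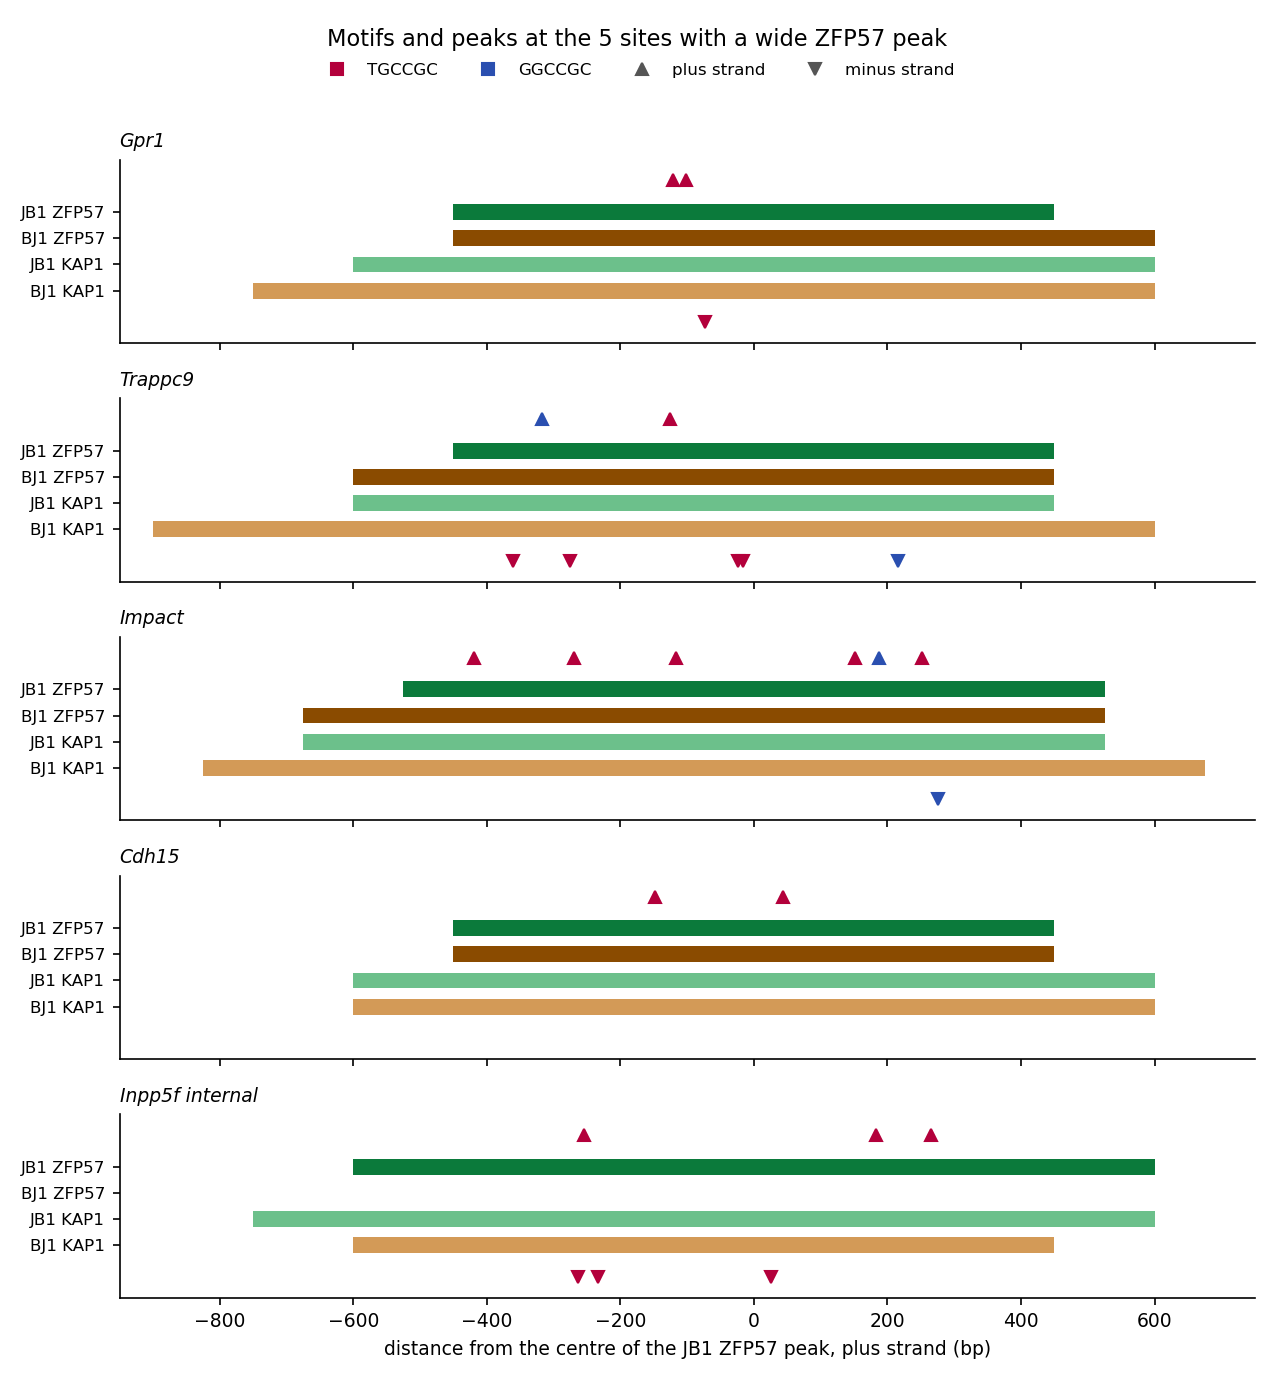
Motifs (triangles, upward on the plus strand and downward on the minus strand) and the peaks of the 4 lists (bars) at the 5 ZFP57 sites in gene bodies, by distance from the centre of the JB1 ZFP57 peak (bp). *Trappc9* and *Impact* hold 7 motifs spread over the peak, *Gpr1* holds 3 within a short stretch, *Cdh15* holds 2 on the plus strand, and the internal site of *Inpp5f* has 6 motifs and an empty row for BJ1 ZFP57.

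The CpG content, on which the methylation of these regions rests, was higher in the peaks of the gene bodies than at the median of the lists. CpG density in the JB1 ZFP57 peaks of the gene bodies was 40 per kb at *Gpr1*, 46.7 at *Cdh15*, 55 at *Inpp5f*, 56.7 at *Trappc9* and 68.6 at *Impact*. The flanking peaks of *Inpp5f* had 16.7 per kb upstream and 13.3 per kb in *Mcmbp*. The medians of the lists were 22.2 in JB1 and 16.7 in BJ1, and that of the 541 regions was 32.2. TGCCGC and GGCCGC each contain a CpG, so that the counts of motifs and of CpGs are not independent.

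In each line 7 KAP1 peaks at these genes overlapped a ZFP57 peak of either line, of 15 in JB1 and 23 in BJ1. Over the whole lists 14.5% of the JB1 and 7.59% of the BJ1 KAP1 peaks did so. In each line 6 of the 7 held a motif and 4 held a pair, with a median of 44.2 CpG per kb. Of all KAP1 peaks that overlapped ZFP57, 91.9% in JB1 and 92.5% in BJ1 held a motif, 20.7% and 20.6% held a pair, and the median was 27.1 and 28.3 CpG per kb. The 8 other peaks of JB1 had a median of 22.6 CpG per kb, 2 of them held a motif, and none held a pair. The 16 other peaks of BJ1 had a median of 15.3 CpG per kb, 6 of them held a motif, and 1 held a pair, the *Zdbf2* peak described above. Of all KAP1 peaks without ZFP57, 30.5% in JB1 and 22.7% in BJ1 held a motif, 2.91% and 2.11% held a pair, and the median was 17.8 and 13.3 CpG per kb. The higher share with a motif where ZFP57 was found is thus a feature of the whole lists and not particular to these genes. Over the whole lists the KAP1 peaks that overlapped ZFP57 were wider, with a median of 1350 bp against 600 bp in both lines. A wider peak has more room for motifs, and peaks of equal width were not compared. The counts here are of few peaks, and no test was made.

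**Figure D4:**
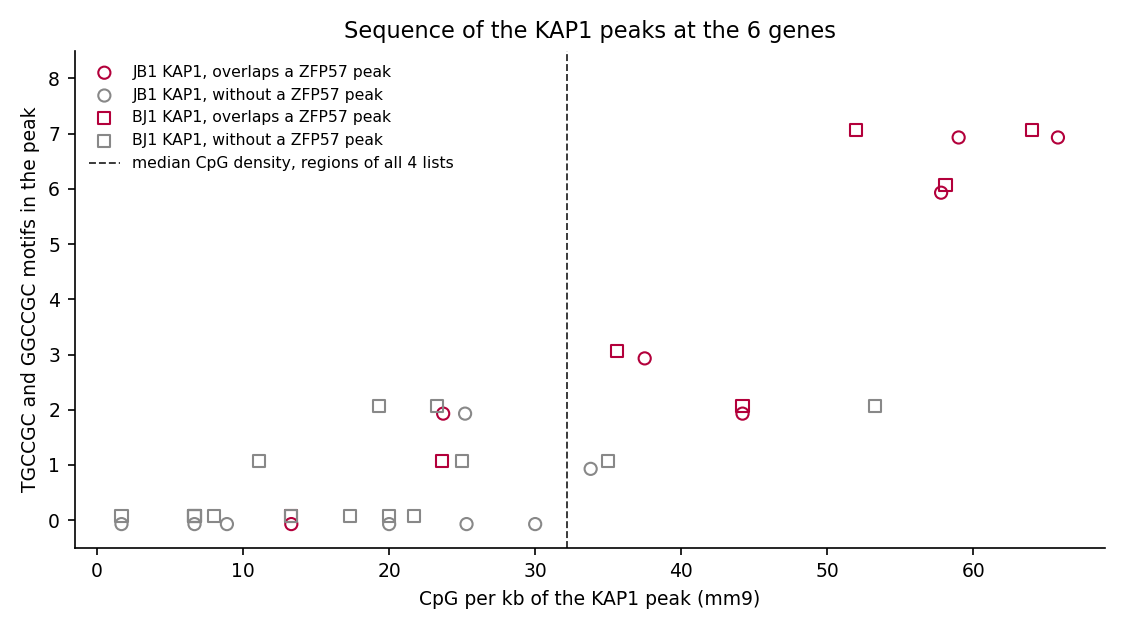
Number of TGCCGC and GGCCGC motifs against CpG per kb in the KAP1 peaks at the 6 genes (circles for JB1, squares for BJ1, red where the peak overlaps a ZFP57 peak of either line), with a dashed line at the median of the regions of all 4 lists, 32.2 CpG per kb; the symbols of the lines are shifted slightly up or down so that both can be seen. All peaks with 3 or more motifs overlap a ZFP57 peak, and the peaks without ZFP57 hold at most 2.

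Every JB1 KAP1 peak at these genes had a counterpart in BJ1, including those at sites with a ZFP57 peak of a single line. All 15 overlapped a BJ1 peak, where 85.9% of the list did. Of the 23 BJ1 peaks 14 overlapped a JB1 peak, where 45.3% did. The 9 BJ1 peaks without a JB1 counterpart lay at *Zdbf2* (3), *Trappc9* (3), *Gpr1*, *Impact* and *Cdh15* (1 each), and none of them overlapped a ZFP57 peak. The ratio of BJ1 to JB1 KAP1 peaks was 1.53 at the 6 genes and 1.87 in the lists. Within 1 kb of an annotated start lay 4 of the 15 JB1 and 5 of the 23 BJ1 KAP1 peaks, against 4.24% and 6.88% of the lists. They were those at *Gm11607*, *Impact*, the internal start of *Inpp5f* and *Mcmbp* in both lines, and a BJ1 peak of 300 bp that began 42 bp from a *Trappc9* start. The peaks here were taken from windows around genes, whereas the shares of the lists are over all peaks, so that these are not like for like.

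Loci of 14 further maternally methylated control regions, *Snrpn*, *Mest*, *Peg3* and *Igf2r* among them, give a measure of what the lists hold at better known regions. ZFP57 had a peak at 13 of them in JB1 and at 12 in BJ1, and 12 had a region of all 4 lists, against 4 of the 6 genes here. *Slc38a4* had a JB1 ZFP57 peak but no BJ1 peak, and *H13* had neither, both with KAP1 in both lines. The widest ZFP57 peak of each gene in these regions was 600 to 2250 bp wide in JB1 with a median of 975 bp over the 12 genes, and 600 to 1950 bp in BJ1 with a median of 1050 bp. The peaks of the 6 genes fell inside these ranges in both lines, the flanking ones of *Inpp5f* excepted. The 13 regions of all 4 lists at the further loci had a median of 7 motifs and 58.2 CpG per kb, and the 4 regions here had 5 and 52.9. By number of motifs *Trappc9* and *Impact* stood at the median of these 13 with 7 each, *Gpr1* (3) and *Cdh15* (2) were below it, and 2 was also the lowest number among the 13. Among 9 neighbouring genes of the loci 3 had a ZFP57 peak in JB1 and 1 in BJ1, and none had a region of all 4 lists. These are not separate peaks throughout, since both peaks of *Mcmbp* are those counted for *Inpp5f*, and *Chrac1* and *Eif2c2* share the 2 JB1 peaks upstream of *Trappc9*.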

How the data were processed

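The authors sequenced ChIP libraries as 50 bp single-end reads, trimmed them (CASAVA 1.8.2, Trim Galore), aligned them to mm9 with Bowtie 0.12.7, allowing 2 mismatches per read, and called peaks with MACS (*P*-value threshold 1e-05). The deposited lists give peak positions in mm9, with no score, fold, *P*-value or read count, so that the depth is unknown. Positions are counted from 1, and all peaks lie on a 150 bp grid.

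Peaks were assigned to genes (GENCODE M1) by an overlap of at least 1 bp with the gene body or 20 kb on either side. Regions of all 4 lists are merged ZFP57 peaks of both lines that overlap KAP1 peaks of both lines. TGCCGC and GGCCGC were searched as exact matches on both strands of mm9, wholly inside the peak. RefSeq promoters (GRCm38.p6) of 4 of the 6 genes were used, and each matched mm9 at a single place. The genes and lists were chosen with earlier results of these data known. Named were all 6 genes, every ZFP57 peak, and the KAP1 peaks that overlap ZFP57, are the widest of their gene or lie at a start; others named, such as the further BJ1 KAP1 peaks, were chosen after their values were seen.

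With 1 library per line and antibody no test between lines was possible, and none was made over peaks. Alternatives were other flanks, overlaps, widths, and distances of motifs and starts. The searches were tested on simulated data. Python 3.11.15, pysam 0.24.0, numpy 2.4.6 and matplotlib 3.10.9 were used.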

Additional observations from a re-analysis of the deposited data

How the results depend on the processing

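The counts at the genes were repeated under 44 alternatives, of which 41 left the count within 1.5 times its value. With the gene body alone, without the 20 kb on either side, the 6 genes had 7 KAP1 peaks in JB1 in place of 15 and 11 in BJ1 in place of 23. With 500 bp in place of 1 kb from a start, 2 of the JB1 KAP1 peaks were counted in place of 4. In these alternatives the narrower limit itself removes the peaks. With the gene body alone *Inpp5f* also lost its BJ1 ZFP57 peak, so that 4 genes had one in BJ1 and 5 in JB1. The number of regions of all 4 lists was 4 under each of the 4 alternatives tried for it. With a flank of 50 kb the genes had 9 ZFP57 peaks in JB1 and 5 in BJ1, and *Zdbf2* gained the JB1 ZFP57 peak downstream of it, so that 6 genes had one in JB1. With TGCCGC alone, an alternative added after seeing the data, 3 JB1 and 2 BJ1 ZFP57 peaks held a pair. No paired analysis was possible because each group has a single library and no test was made. The lists hold no read counts, so that a missing peak cannot be told apart from one below the threshold of the caller, and no interval can be given.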
